A study of Mus musculus with 8 samples.

Results

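The nuclear-encoded subunits of the respiratory chain were examined in 8 mouse heart libraries as a module of 85 genes, out of 34745 genes in the deposited table. Members were chosen by their symbols. The rule took the numbered Ndufa, Ndufb, Ndufc, Ndufs and Ndufv genes, the genes Sdha, Sdhb, Sdhc and Sdhd, the Uqcr genes, the Cox subunits from Cox4 to Cox8 whose number is followed by a, b or c, and the Atp5 genes, without Ndufaf assembly factors and without names ending in -ps. By these names 37 members belonged to complex I, 4 to complex II, 8 to complex III, 16 to complex IV and 17 to complex V. The other 3 members, Atp5k-ps2, Atp5l-ps1 and Atp5l-ps2, carry numbered pseudogene names and were counted as members but left out of all values given by complex. Names and roles do not match everywhere: Ndufa4 was counted under complex I although its protein sits in complex IV, Atp5s and Atp5sl are not subunits of the ATP synthase core, and the subunit genes Cox4i1, Cyc1 and Ndufab1 fall outside the rule.

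The hearts came from a study of TRIM21, an E3 ubiquitin ligase, in experimental autoimmune myocarditis (EAM), a heart inflammation raised with an emulsion of complete Freund's adjuvant (CFA) and a peptide of the cardiac myosin heavy chain MyHCα. There were 3 libraries of Trim21 knockout hearts at day 21 of EAM (KO 1 to KO 3), 3 of wild-type hearts at day 21 of EAM (WT 1 to WT 3) and 2 of wild-type control hearts at day 0 (Control 1 and Control 2), and all 8 carry the strain name Balb/c. The protocol gives control mice CFA with phosphate-buffered saline, so between EAM and control hearts the peptide and the day changed together and cannot be told apart. The labels do not say how the knockout was made, whether wild-type mice were littermates, how many animals a library holds or which part of the heart was taken, so p-values measure the spread between these libraries only.

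The respiratory chain is a row of protein complexes in the inner mitochondrial membrane. Complex I, the NADH dehydrogenase, and complex II, the succinate dehydrogenase, hand electrons to ubiquinone, complex III passes them to cytochrome c, complex IV passes them to oxygen, and complex V, the ATP synthase, makes ATP from the proton gradient that the chain builds. Most subunits are encoded in the nucleus and imported, while a small set, including the membrane core of several complexes, is encoded by mitochondrial DNA. Heart muscle covers most of its energy need this way, and striated muscle carries its own isoforms of some complex IV subunits.

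Libraries held 14390000 to 16930000 fragments, as inferred from the steps of the lowest values. Trim21 was at 0.0481, 0 and 0.0220 FPKM (fragments per kilobase of transcript, scaled to the library's mapped fragments) in the knockout libraries, against 2.98, 3.29 and 3.37 FPKM in WT EAM and 1.98 and 2.18 FPKM in control libraries, and its log2 difference between knockout and WT EAM was -2.04 (SE 0.10, adjusted p = 1.52e-05 in limma). Of the cardiomyocyte markers, 8 of 8 were present, with summed levels of 9935 to 11580 FPKM in knockout, 9461 to 10736 FPKM in WT EAM and 11740 to 12499 FPKM in control libraries. Libraries KO 1, KO 2 and WT 2 stood apart in 8 atrial genes, whose sums were 4968, 3997 and 5404 FPKM there and 169.9 to 778 FPKM in the other 5 libraries. Their white adipocyte sums, over 6 genes, were 18.1 to 101 FPKM, against 0.0989 to 2.02 FPKM elsewhere. Library WT 3 had the lowest share of mitochondrially encoded fragments, 33.6%, against 36.5% to 43.6% in the others.

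Respiratory chain transcripts were among the most abundant nuclear transcripts of the heart. Of the 100 nuclear genes with the highest mean FPKM, 15 were members, although members made up 0.77% of all genes tested. The median member of complexes I to V stood at 124.9 FPKM, against 3.72 FPKM for 9838 other tested genes with a coding sequence. Depth behind these values was high: in the library where each was lowest, 76 of 78 tested members of the complexes held 100 or more fragments, the lowest member being Cox7c with 18. The members took 6.34% to 6.97% of the summed nuclear FPKM in the knockout, 6.10% to 7.25% in WT EAM and 7.37% to 7.71% in control hearts. Both control libraries thus lay above all 6 EAM libraries in this share, which does not depend on scaling between libraries, and the EAM genotypes overlapped. The order does depend on the measure. As a share of all fragments, mitochondrially encoded ones included, WT 3 had 2.91%, above Control 1 at 2.80% and Control 2 at 2.83%. As a share of nuclear fragments, WT 3 had 4.38%, just below Control 1 at 4.41%.

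By complex, the medians of the members' mean levels over the 8 libraries were 91.5 FPKM for complex I, 174 FPKM for complex II, 239 FPKM for complex III, 173 FPKM for complex IV and 117 FPKM for complex V. All 8 members of complex III lay between 131 FPKM (Uqcrh, the hinge subunit) and 330.4 FPKM (Uqcrfs1, the Rieske iron-sulfur protein). Complex II ran from 87.0 FPKM for the membrane anchor Sdhc to 224 FPKM for the iron-sulfur subunit Sdhb. Complex I spanned from 3.97 FPKM for Ndufb4 to 643 FPKM for Ndufb9, both accessory subunits. In complex V the catalytic beta subunit Atp5b was highest at 560.2 FPKM. The deposited values of the 3 genes for the c subunit of the rotor differed widely, with Atp5g3 at 182, Atp5g1 at 27.6 and Atp5g2 at 0.762 FPKM. Transcripts of other genes match Atp5g1 and Atp5g2 closely, so the levels of these 2 genes and the width of this spread are uncertain. The order of the 78 tested members of the complexes was nearly the same in all libraries (Spearman's rho 0.982 to 0.995 over the 28 pairs of libraries, as a description).

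**Figure D1:**
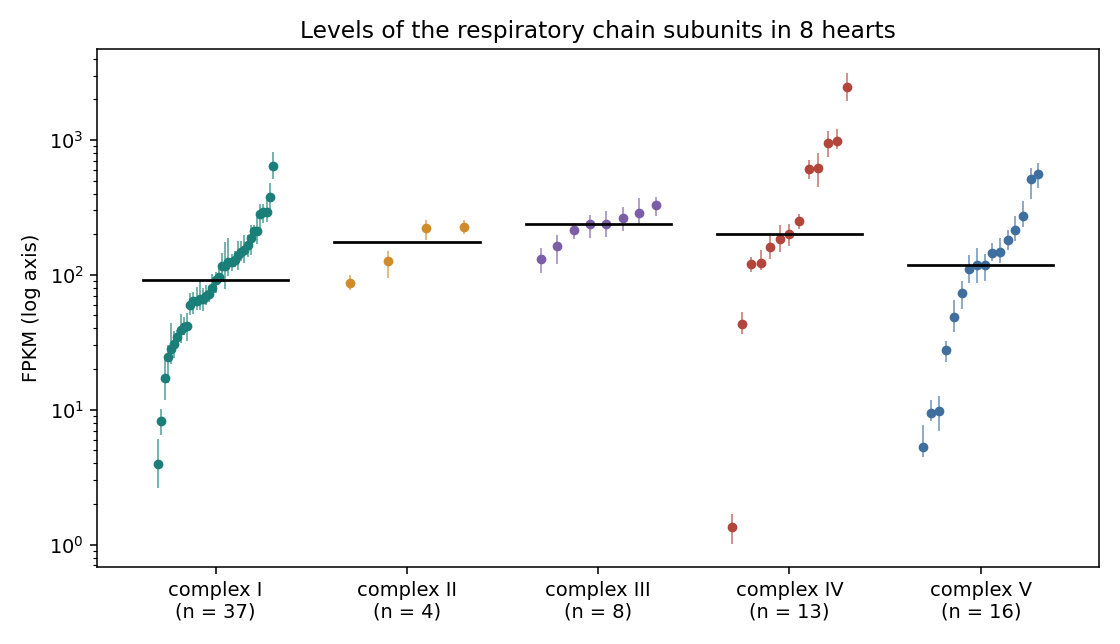
Mean FPKM over the 8 libraries (points, log axis) and range from the lowest to the highest library (vertical lines) for the 78 tested members, by complex, with the median of each complex as a black line. Complex III sits within 131 to 330.4 FPKM, while complex IV spreads from 1.35 FPKM (Cox7c) to 2474 FPKM (Cox6a2).

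Complex IV held both the highest and the lowest members. Cox6a2, the striated-muscle form of subunit 6A, had 2531, 2155 and 2405 FPKM in knockout, 2419.6, 1928 and 2661 FPKM in WT EAM and 2552 and 3137 FPKM in control libraries. Other members of the complex were near or at 0: Cox6b2 and Cox8c, known as testis forms, averaged 0.434 and 0 FPKM over the 8 libraries, and Cox7b2 averaged 0.0305 FPKM. For Cox8c, a count of 0 allows up to 3 fragments per library, which covers counting error only. These 3 genes, Atp5g2 and Atp5l-ps2 are the 5 members below the filter of 1 FPKM in at least 2 libraries, and the other 80 were tested.

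Copies elsewhere in the genome limit some of these levels. For 28 of the 85 members another gene's transcript in the GENCODE M21 annotation matched at 95% identity or more over 200 bases or more. Some matches were to protein-coding genes of other names, such as Tssk6 for Ndufa13 and Pdzd9 for Uqcrc2, and need not be copies. For 8 members such a gene stood higher in the table than the member itself. These 8 include the 3 members with pseudogene names, whose higher match was Atp5k, Atp5l or Atp5l2-ps. The pseudogene Gm10250 was at 835 FPKM, against 147 FPKM for Atp5h, a subunit of the stalk of complex V. Gm11273 was at 689 FPKM, against 183 FPKM for Cox5b. BC002163 was at 121 FPKM, against 64.4 FPKM for Ndufs5. Gm10012 was at 8.56 FPKM, against 1.35 FPKM for Cox7c. Ndufb4 matched a gene absent from the deposited table at 100% over 390 bases. Atp5g2 matched 2 genes at 100% over 441 bases, and Atp5g1 matched 1 at 99.8% over 411 bases. The sources used here do not give how shared reads were assigned. The values of members with such a copy are thus uncertain, among them Atp5h, Atp5l, Cox5b, Cox7c, Ndufs5, Ndufb4, Atp5g1 and Atp5g2.

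Striated muscle has its own forms of 3 complex IV subunits, and each stood above its ubiquitous counterpart in every library. Cox7a1 had 870.2, 890.4 and 1022 FPKM in knockout, 947, 851 and 1209.9 FPKM in WT EAM and 1029.7 and 1067 FPKM in control libraries. Its counterpart Cox7a2 had 169, 152 and 155 FPKM in knockout, 162, 130.1 and 194 FPKM in WT EAM and 159 and 175 FPKM in control libraries. In both genes WT 2 was the lowest and WT 3 the highest of the 8 libraries. Cox8b had 529, 445 and 647 FPKM in knockout, 648, 507 and 795 FPKM in WT EAM and 648 and 735 FPKM in control libraries. Its counterpart Cox8a had 278, 231 and 246 FPKM in knockout, 238, 267 and 249 FPKM in WT EAM and 219.9 and 281 FPKM in control libraries. Cox8a thus differed little between group means, at 252 ± 23.8, 251 ± 14.6 and 251 ± 43.4 FPKM (SD, n = 3, 3 and 2). Cox6a1, the counterpart of Cox6a2, had 129, 109 and 112 FPKM in knockout, 119, 129 and 127 FPKM in WT EAM and 106 and 135 FPKM in control libraries.

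Ratios of muscle to ubiquitous form were compared because they do not depend on scaling between libraries. The ratio of Cox6a2 to Cox6a1 was 19.6, 19.8 and 21.4 in knockout, 20.3, 15.0 and 21.0 in WT EAM and 24.1 and 23.3 in control libraries, so all 6 EAM libraries lay below both controls. The log2 difference was -0.35 for WT EAM against control and -0.23 for knockout against control (exact two-sided permutation test, p = 0.2 each, the smallest that 3 against 2 libraries can give; adjusted p = 0.9 over the 9 tests of 3 ratios). Without WT 2, the library with the lowest ratio, the difference between WT EAM and control was -0.20. Between knockout and WT EAM hearts this ratio overlapped (log2 difference 0.13, exact permutation p = 0.8, smallest possible 0.1). The ratio of Cox7a1 to Cox7a2 was 5.15, 5.84 and 6.59 in knockout, 5.83, 6.54 and 6.25 in WT EAM and 6.48 and 6.11 in control libraries, with overlap in all 3 comparisons (exact permutation p from 0.6 to 1). The ratio of Cox8b to Cox8a was 1.90, 1.92 and 2.63 in knockout, 2.72, 1.90 and 3.19 in WT EAM and 2.95 and 2.61 in control libraries (exact permutation p from 0.4 to 1). Its 3 lowest values came from KO 1, KO 2 and WT 2, the libraries high in atrial and adipocyte transcripts, whose part in this ratio was not tested.

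**Figure D2:**
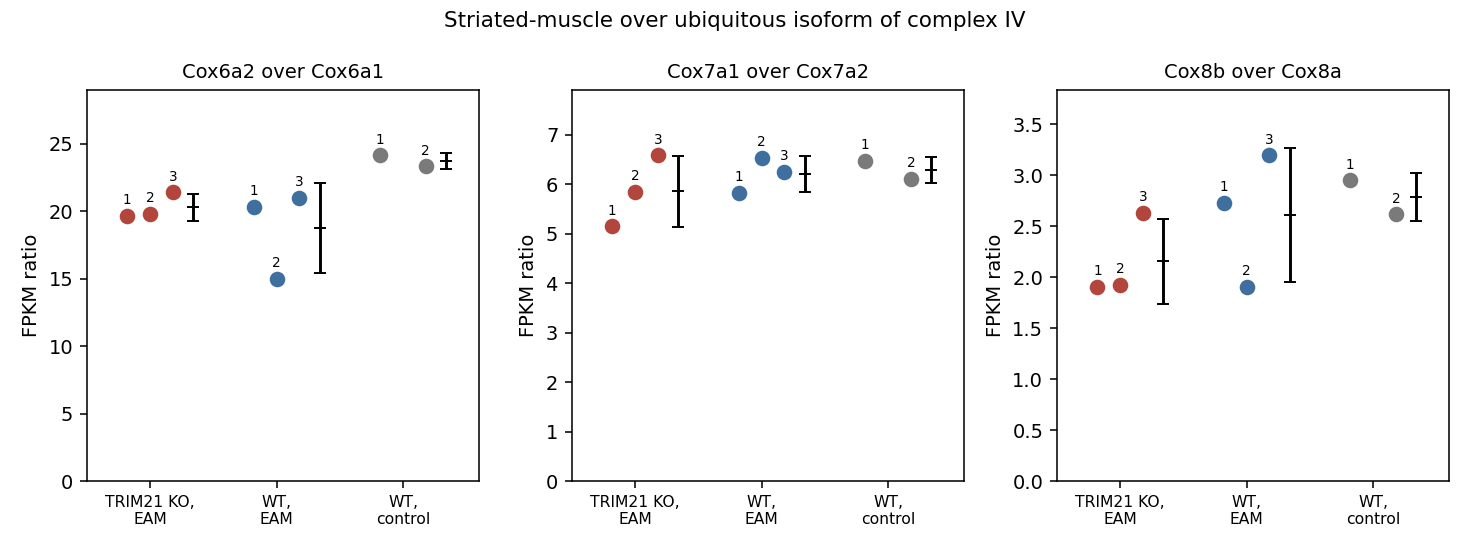
FPKM ratio of the striated-muscle to the ubiquitous isoform of 3 complex IV subunits in each library (points, replicate number above), with the mean and SD of each group beside the points. Cox6a2 over Cox6a1 lies at 15.0 to 21.4 in the EAM libraries and at 24.1 and 23.3 in the controls, and Cox8b over Cox8a is lowest, at 1.90 to 1.92, in KO 1, KO 2 and WT 2.

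The promoters of the Cox8 pair are shown as those of a muscle and a ubiquitous form of the same subunit, and that of Atp5k because this gene had the widest difference of the module from control hearts. Sequences are RefSeq promoters of the C57BL/6J reference (GRCm38.p6), 250 bases before to 50 after the gene start, not of the Balb/c mice studied. Capitals mark motifs searched on both strands: TATAAA, the palindromic GC-rich consensus of NRF1, ETS (CCGGAAG), YY1 (AAGATGGCG) and ERR (AAGGTCA). Cox8b (chr7:140900397-140900696, minus strand) holds TATAAA, Cox8a (chr19:7217567-7217866, minus strand) holds the ETS letters at 2 places, and Atp5k (chr5:108434350-108434649, minus strand) holds NRF1, ETS and ERR letters. The promoters of Cox7a1 and Cox7a2, another muscle and ubiquitous pair, hold none of these motifs, so the Cox8 contrast is not general to such pairs.
Cox8b: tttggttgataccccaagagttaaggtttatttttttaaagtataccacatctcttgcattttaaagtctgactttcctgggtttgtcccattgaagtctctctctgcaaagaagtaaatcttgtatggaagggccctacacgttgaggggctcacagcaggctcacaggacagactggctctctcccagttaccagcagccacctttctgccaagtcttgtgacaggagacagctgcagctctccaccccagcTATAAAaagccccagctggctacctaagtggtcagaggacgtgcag
Cox8a: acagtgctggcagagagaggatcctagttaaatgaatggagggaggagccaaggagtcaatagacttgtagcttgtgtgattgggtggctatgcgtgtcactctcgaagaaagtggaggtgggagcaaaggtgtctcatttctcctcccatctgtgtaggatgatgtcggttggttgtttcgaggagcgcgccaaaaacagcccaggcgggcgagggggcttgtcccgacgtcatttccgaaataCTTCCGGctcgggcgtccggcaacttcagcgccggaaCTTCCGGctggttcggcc
Atp5k: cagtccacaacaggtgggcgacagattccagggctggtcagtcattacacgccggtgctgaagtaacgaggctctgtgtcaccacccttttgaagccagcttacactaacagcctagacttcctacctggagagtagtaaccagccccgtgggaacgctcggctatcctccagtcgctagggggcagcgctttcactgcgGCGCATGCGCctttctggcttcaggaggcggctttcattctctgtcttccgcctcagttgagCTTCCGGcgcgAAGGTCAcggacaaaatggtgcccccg

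Promoters were found by symbol for 66 of the 85 members. The NRF1 letters, whose matches on both strands can overlap, as they do in Atp5k, occurred in 25.8% of these promoters and in 5.19% of 27025 genes in the RefSeq table. The ETS letters, bound by GABP among others, occurred in 24.2% of member promoters and 9.93% of all genes. YY1 letters stood in 10.6% against 1.64%, and ERR letters, the half-site of estrogen-related receptors, in 12.1% against 5.38%. TATAAA stood in 10.6% of member promoters, against 15.7% of all genes. A total of 29 member promoters held NRF1 or ETS letters and 4 held both (Atp5h, Atp5k, Cox6a1 and Sdhd). A match is a description of the reference letters and not a bound site. The genes compared were all those of the RefSeq table, whether or not expressed in heart. Whether these shares differ from those of other highly expressed genes was not tested.

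Trim21 knockout EAM hearts were set against wild-type EAM hearts to compare the module between genotypes at day 21. No member differed past the threshold. With limma on log2(FPKM + 1), 0 of 80 tested members had an adjusted p under 0.05 in either direction, where 3.09% of all 10393 genes tested passed, 0.289% higher and 2.8% lower in the knockout. At an unadjusted p under 0.05 the count was also 0, against 2.23% of genes higher and 17.7% lower. The median member had a log2 difference of -0.09, against -0.12 for all genes tested, and 60 of 80 members had a negative difference, against 72.8% of all genes. Among the 1040 genes with the highest mean levels the median was -0.12 and 749 were negative. The interval of a single member's log2 difference, before adjustment, had a median half-width of 0.34. For a typical member smaller differences were not detectable here, and an adjusted p under 0.05 took a wider one.

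Complex medians lay within a narrow range and were -0.12 for complex I, 0.00 for complex II, -0.02 for complex III, -0.10 for complex IV and -0.05 for complex V. Within complex I, the 7 core subunits that carry the flavin and iron-sulfur clusters had a median of 0.02 and the 30 accessory members -0.13, with 28 of the 30 negative. The core genes have longer coding sequences than most accessory ones. Over 78 members Spearman's rho between this difference and coding length was 0.48, so the split by structure was not separated from length. The knockout and WT EAM libraries did not overlap for 2 members, both lower, or 2 of 80, where 22.6% of all genes were lower and 2.58% higher without overlap. The first was Cox7a2l (chr17:83501919-83514333), a factor that joins complexes III and IV, with 118, 109 and 110.3 FPKM in knockout, against 123, 123 and 154 FPKM in WT EAM libraries. Its log2 difference of -0.24 (SE 0.13) had an adjusted p of 0.329, the lowest of the module. The other was Atp5h, with 131, 122 and 130.0 FPKM in knockout, against 136, 136 and 188 FPKM in WT EAM libraries, and its near-identical pseudogene Gm10250 had a log2 difference of -0.32 (SE 0.16, adjusted p = 0.309).

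The widest negative differences belonged to small accessory subunits. Ndufc1 of complex I had 24.9, 24.4 and 23.6 FPKM in knockout, against 31.9, 21.7 and 43.9 FPKM in WT EAM libraries, a log2 difference of -0.35 (SE 0.21) with an adjusted p of 0.405. Atp5l, the g subunit of the ATP synthase membrane part, had 9.41, 7.00 and 8.25 FPKM in knockout, against 10.3, 8.30 and 12.7 FPKM in WT EAM libraries (-0.30, SE 0.16, adjusted p = 0.331). Uqcr11 of complex III had 237, 212 and 239 FPKM in knockout, against 295, 234 and 303 FPKM in WT EAM libraries (-0.27, SE 0.15). In each of these genes WT 3 was the highest EAM library, and WT 2 lay within or below the knockout range. Ndufa5 (-0.30, SE 0.26) and Cox8b (-0.26, SE 0.19) completed the 5 lowest. Atp5l has a near-identical pseudogene, Atp5l2-ps, at 17.0 FPKM against 9.77 FPKM for Atp5l.

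The widest positive differences were Atp5g1 with 0.21 (SE 0.14), Ndufs1, the largest iron-sulfur subunit of complex I, with 0.17 (SE 0.22), Uqcrc1, a core protein of complex III, with 0.14 (SE 0.12), Sdha, the flavoprotein of complex II, with 0.11 (SE 0.18), and the pseudogene Atp5k-ps2 with 0.08 (SE 0.17). Sdha had 119, 148 and 123 FPKM in knockout, against 94.0, 135 and 135 FPKM in WT EAM libraries. Ndufs1 had 22.7, 30.3 and 23.4 FPKM in knockout, against 15.9, 26.4 and 26.4 FPKM in WT EAM libraries. In both genes WT 1 was the lowest of all EAM libraries and KO 2 the highest. The direction of the module median turned with 1 library and with scaling: it was 0.04 without WT 3 (28 of 80 members negative), -0.02 without KO 2, -0.18 without WT 2, 0.07 with median-ratio scaling, which moved the median of all genes to 0.00, and 0.05 with quantile normalization. Cardiomyocyte markers summed to 9935 to 11580 FPKM in knockout and 9461 to 10736 FPKM in WT EAM libraries (4 of 8 negative, median log2 difference 0.09), and macrophage markers to 230.4 to 289 FPKM in knockout and 422 to 506 FPKM in WT EAM libraries (7 of 8 negative, 6 of them called lower). Fibroblast markers summed to 291 to 401 FPKM in knockout and 549 to 633 FPKM in WT EAM libraries, with 6 of 6 negative (median log2 difference -0.85) and 3 called lower. Their part in the members' values was not tested.

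Without WT 2 the count of members lower without overlap was 25 of 80, where 30.2% of all genes were lower without overlap. It was 7 without KO 1 (32.3%), 5 without WT 1 (35.4%), 4 without KO 3 (25.9%) and 37 without KO 1, KO 2 and WT 2 (56.7%).

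Wild-type EAM hearts were set against wild-type control hearts to compare the module with and without EAM. The members lay below control in most cases while genes in general lay above it, but no single member passed the threshold. In limma 0 of 80 members were called, against 1.49% of all genes, 1.36% higher and 0.135% lower. At an unadjusted p under 0.05 there were 4 members, all lower (Atp5sl, Ndufv1, Ndufs7 and Atp5k-ps2), against 12.2% of all genes higher and 2.33% lower. The median log2 difference was -0.17 for the members and 0.08 for all genes tested, and 69 of 80 members were negative, against 33.2% of all genes. Among the 1040 genes with the highest mean levels, which are nearer to the members in abundance, 521 were negative and the median was 0.00.

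All 5 complexes had negative medians here. They were -0.17 for complex I, -0.15 for complex II, -0.19 for complex III, -0.11 for complex IV and -0.19 for complex V, and all 4 members of complex II and all 8 of complex III were negative. Atp5sl (chr7:25619414-25625551), known as an assembly factor of complex I, had 8.29, 9.18 and 8.65 FPKM in WT EAM libraries, against 10.8 and 11.8 FPKM in control libraries. Its log2 difference of -0.34 (SE 0.11) had an adjusted p of 0.193. Ndufv1 (chr19:4007497-4012806), the core subunit that binds NADH, had 37.4, 37.6 and 40.4 FPKM in WT EAM libraries, against 48.4 and 47.9 FPKM in control libraries, with a log2 difference of -0.32 (SE 0.12) and an adjusted p of 0.272. For both genes the 2 controls lay together above all 3 EAM libraries. The widest negative difference was that of the pseudogene Atp5k-ps2, at -0.57, with only 8 to 22 fragments per library. Atp5k followed at -0.36.

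Ndufs7, a core iron-sulfur subunit of complex I, had 107, 94.7 and 117 FPKM in WT EAM libraries, against 124 and 145 FPKM in control libraries (-0.34, SE 0.15, adjusted p = 0.335). Cox6b1, which bridges the complex IV dimer, had 948, 746 and 992 FPKM in WT EAM libraries, against 1084 and 1165 FPKM in control libraries (-0.34, SE 0.16). Without overlap, 12 of 80 members were lower and 1 was higher, where 6.68% of all genes were lower and 24.6% higher. Of the 1040 genes with the highest mean levels, which lay nearer to the members, 124 were lower and 176 higher without overlap. The single higher member was Cox7a2l, at 123, 123 and 154 FPKM in WT EAM libraries, against 120.1 and 119 FPKM in control libraries (0.14, SE 0.14, adjusted p = 0.705). The widest positive differences were Ndufb4 with 0.39 (SE 0.19), Ndufa4l2, a paralogue of Ndufa4 known to be induced by low oxygen, with 0.20 (SE 0.18), Ndufb5 with 0.20 (SE 0.19), Ndufc1 with 0.20 (SE 0.24) and Atp5s with 0.19 (SE 0.19). For Ndufb4 the WT EAM values of 3.97, 3.59 and 6.08 FPKM overlapped the control values of 2.63 and 3.79 FPKM. Another gene's transcript matches Ndufb4 at 100% over 390 bases, so its level is uncertain.

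The count of members lower without overlap moved with single libraries: it was 54 of 80 without WT 3 (17.2% of all genes), 32 without Control 1 (12.6%) and 20 without Control 2 (15.6%). It was also 41 with median-ratio scaling (15.1%), but 14 without WT 1 (9.43%), 12 without WT 2 (9.76%) and 8 with equal FPKM sums (4.32%). The negative median held under every alternative run, from -0.30 to -0.08, the end nearest to 0 coming with the atrial score as a covariate. It was -0.30 without WT 3, -0.09 without WT 2 and -0.10 without Control 2. Without KO 1, KO 2 and WT 2, 56 of 80 members were negative. Cardiomyocyte markers were lower as well, at 9461 to 10736 FPKM summed in WT EAM and 11740 to 12499 FPKM in control libraries, with 8 of 8 markers negative (median log2 difference -0.22). Macrophage markers summed to 422 to 506 FPKM in WT EAM and 252 to 293 FPKM in control libraries, with 7 of 8 positive and 2 called higher. Fibroblast markers were positive in 6 of 6 cases (1 called), endothelial markers in 5 of 5 and atrial markers in 8 of 8 (none called). In bulk libraries fewer heart muscle cells and less RNA per cell cannot be told apart, and the part of these cell markers in the result was not tested.

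Trim21 knockout EAM hearts were set against control hearts, a comparison in which genotype and EAM changed together and which shares its knockout and control libraries with the 2 above. Most members lay below control in every knockout library, again with no call. In limma 0 of 80 passed, against 1.37% of all genes, 0.568% higher and 0.799% lower. At an unadjusted p under 0.05 there were 12 members, all lower, against 5.45% of all genes higher and 8.24% lower. The median log2 difference was -0.24, against -0.03 for all genes tested, and 74 of 80 members were negative, against 55.3% of all genes. The 1040 genes with the highest mean levels lay nearer to the members, with a median of -0.13, 737 negative and 378 lower without overlap. For 55 of 80 members every knockout library lay below both controls, where 22.4% of all genes were lower and 14.1% higher without overlap, and no member was higher.

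Complex medians were -0.25 for complex I, -0.11 for complex II, -0.25 for complex III, -0.26 for complex IV and -0.24 for complex V. Atp5k (chr5:108433244-108434448), the e subunit with which ATP synthase forms dimers, differed most. It had 95.7, 87.2 and 111 FPKM in knockout libraries, against 139 and 157 FPKM in control libraries, and group means of 98.0 ± 12.0 and 148 ± 13.0 FPKM (SD, n = 3 and 2). Its log2 difference of -0.59 (SE 0.18) had an adjusted p of 0.166, the lowest of the module, with the 3 knockout libraries all below the controls. In WT EAM libraries Atp5k had 120.2, 95.3 and 133 FPKM, also below both controls.

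Ndufb3 (chr1:58586384-58595964), an accessory subunit in the membrane arm of complex I, had 115, 109 and 136 FPKM in knockout libraries, against 167 and 179 FPKM in control libraries (-0.52, SE 0.17, adjusted p = 0.198). Cox6c, a small subunit of complex IV, had 38.4, 36.5 and 40.6 FPKM in knockout libraries, against 50.6 and 53.3 FPKM in control libraries (-0.42, SE 0.14, adjusted p = 0.223). Ndufa1, an X-linked subunit of complex I, had 192, 179 and 193 FPKM in knockout libraries, against 237 and 268 FPKM in control libraries (-0.43, SE 0.17, adjusted p = 0.298). In each of these genes every knockout library lay below both controls. Ndufv1 had 41.7, 37.2 and 35.9 FPKM in knockout libraries, against 48.4 and 47.9 FPKM in control libraries (-0.33, SE 0.12, adjusted p = 0.278). Atp5k, Ndufb3, Cox6c, Ndufa1 and Ndufv1 are 5 of the 12 with an unadjusted p under 0.05, and Cox6c, Ndufa1 and Ndufv1 were named for that after their values were seen.

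The 5 lowest differences were those of Atp5k, Ndufb3, Atp5k-ps2 (-0.49, SE 0.19), Ndufa5 (-0.46, SE 0.29) and Ndufa12 (-0.45, SE 0.27). Of these, Atp5k-ps2 and Ndufa12 overlapped between the groups. The c subunit genes had -0.10 (SE 0.16) for Atp5g1 and -0.35 (SE 0.16) for Atp5g3. Ndufa4 had -0.35 (SE 0.18), while its paralogue Ndufa4l2 had 0.05 (SE 0.18).

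Some members lay near the control level. Cox8a had a log2 difference of 0.01 (SE 0.15), with an interval from -0.33 to 0.36. In complex II, Sdha (-0.02, SE 0.21) and Sdhc (-0.02, SE 0.14) had values near 0 while Sdhb (-0.20, SE 0.14) and Sdhd (-0.20, SE 0.16) lay lower, with every knockout library below both controls. Sdhb had 216, 202 and 224 FPKM in knockout libraries, against 246 and 245 FPKM in control libraries. The widest positive difference was Ndufb4 with 0.23 (SE 0.19), whose libraries overlapped and whose level is uncertain. It was followed by Ndufb5, Atp5s, Ndufa4l2 and Atp5l-ps1 with values from 0.03 to 0.10.

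The negative median in this comparison held under every alternative run, from -0.30 to -0.11. The count of members lower without overlap was 34 of 80 with median-ratio scaling (18.3% of all genes), 23 with quantile normalization (19.9%) and 37 with the exon-length trend removed (19.3%). Without KO 1, KO 2 and WT 2, which leaves KO 3 alone in its group, its spread taken from the other groups, 72 of 80 members were negative and the median was -0.19. Cardiomyocyte markers summed to 9935 to 11580 FPKM in knockout and 11740 to 12499 FPKM in control libraries, with 6 of 8 markers negative (median log2 difference -0.21, and -0.13 without KO 3 and -0.11 without Control 1). Endothelial markers summed to 214 to 219 FPKM in knockout and 151 to 170.5 FPKM in control libraries, with 5 of 5 positive (median 0.43) and 1 called higher. Macrophage markers summed to 230 to 289 FPKM in knockout and 252 to 293 FPKM in control libraries, with 6 of 8 negative (median -0.17). Fibroblast markers summed to 291 to 401 FPKM and 444 to 445 FPKM, with 4 of 6 negative (median -0.24). Neither list had a call. Atrial markers were positive in 8 of 8 cases (median 2.88), with no call. The part of these markers in the members' result was not tested.

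**Figure D3:**
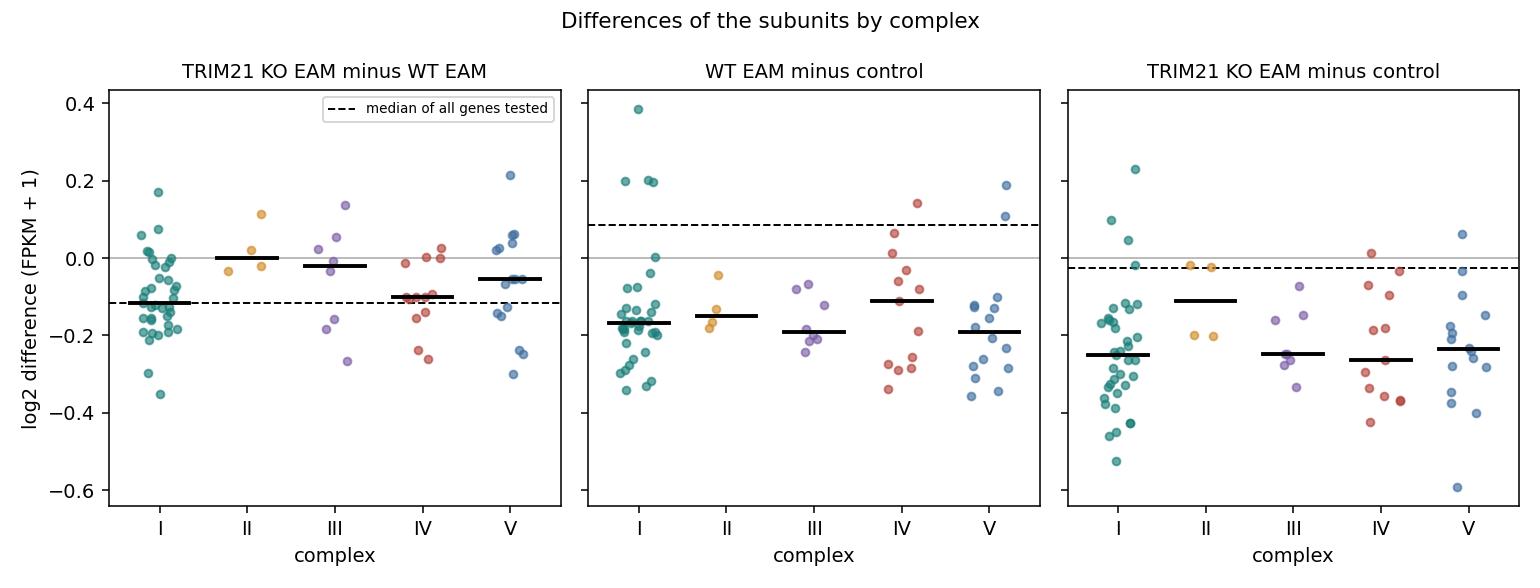
Log2 differences of the 78 tested members of the 5 complexes (points), with the median of each complex as a black line and the median of all genes tested as a dashed line. Complex medians lie at -0.12 to 0.00 for Trim21 KO EAM minus WT EAM, at -0.19 to -0.11 for WT EAM minus control and at -0.26 to -0.11 for Trim21 KO EAM minus control.

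The members were also described library by library. Their median deviation from each gene's own mean, on the log2 scale, was -0.04, -0.19 and -0.04 in KO 1, KO 2 and KO 3, -0.06, -0.18 and 0.21 in WT 1, WT 2 and WT 3, and 0.11 and 0.21 in Control 1 and Control 2. WT 3 thus stood at the level of the controls and apart from WT 1 and WT 2. Over all genes tested the deviation was also highest in WT 3, at 0.15. With the trend on exon length removed, WT 3 was at -0.02, between WT 1 at -0.05 and KO 3 at 0.07, and the controls were at 0.12 and 0.14, above all 6 EAM libraries. Removing this trend also took out each library's common level, 0.15 in WT 3, so the shift of WT 3 cannot be assigned to length. The within-group SD of a member had a median of 0.184 on the log2 scale, against 0.176 for 1440 other genes of like level.

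**Figure D4:**
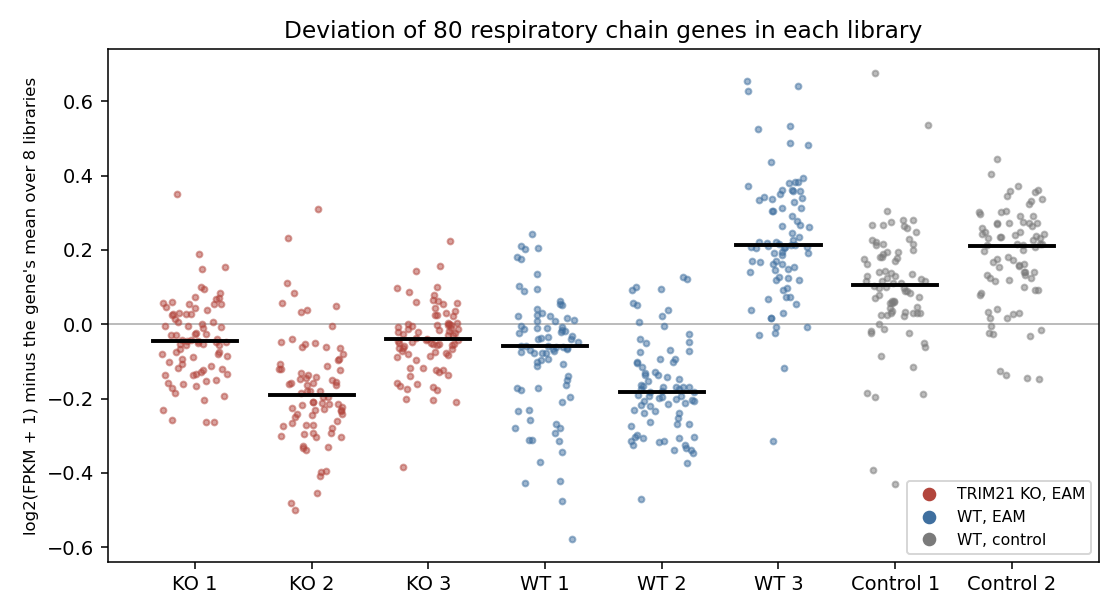
Deviation of each of the 80 tested members from its own mean over the 8 libraries, on the log2(FPKM + 1) scale, with the median of each library as a black line. Control 1, Control 2 and WT 3 have medians of 0.11 to 0.21 and the other 5 libraries of -0.19 to -0.04.

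Members differ in coding length, with a median of 405 bases against 1302 bases for other tested genes, and short and long members deviated unequally within a library. Across the 78 members, which share a library, Spearman's rho between deviation and coding length was -0.67 in WT 1 and -0.43 in Control 2 but 0.49 in KO 2, 0.49 in WT 2 and 0.40 in Control 1, with 0.10 in KO 1, 0.07 in KO 3 and -0.16 in WT 3. In WT 1 the 14 members with 800 coding bases or more had a median deviation of -0.27 and the 21 members under 300 bases 0.01. In KO 2 the same classes had -0.06 and -0.23. In 9825 other genes rho was farthest from 0 in WT 3, at -0.42. It was 0.28 in KO 2, 0.20 in WT 2, 0.18 in Control 1 and -0.13 in Control 2, and from -0.06 to 0.05 in KO 1, KO 3 and WT 1.

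Short and long members were then set side by side in each comparison. Between knockout and WT EAM hearts the 21 short members had a median log2 difference of -0.13, with 18 negative, and the 14 long members 0.01, with 6 negative. Between WT EAM and control hearts short members had -0.13, with 18 of 21 negative, and long members -0.20, with 14 of 14 negative. Between knockout and control hearts the medians were -0.26, with 19 of 21 negative, and -0.18, with 14 of 14 negative. Both classes lay below control in both EAM genotypes, while between genotypes the short members lay lower in the knockout and the long members near 0. The part of transcript length in the differences was not tested beyond removing the exon-length trend, which also took out each library's common level.

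**Figure D5:**
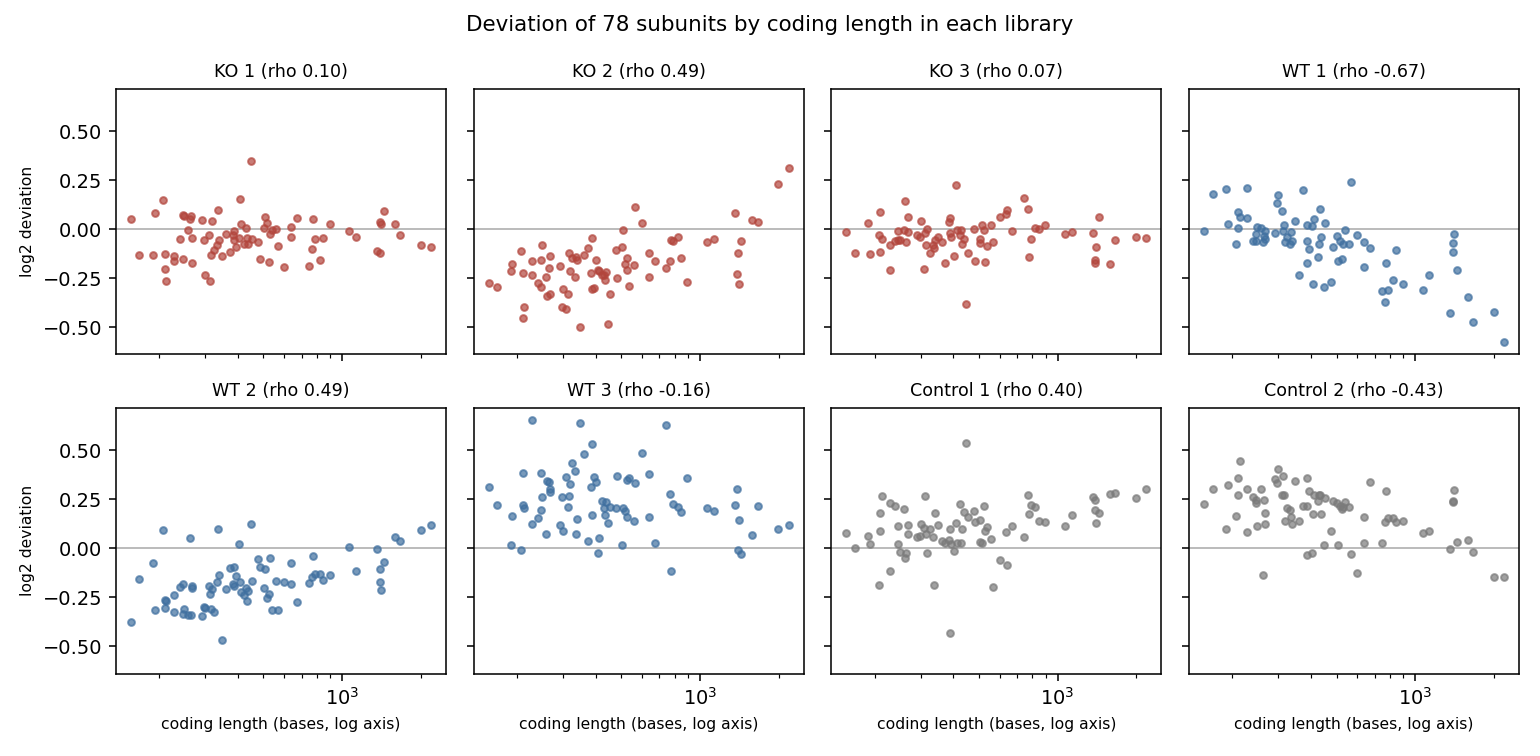
Deviation of the 78 tested members of the complexes from their own mean (vertical axis, log2) against coding length in bases (log axis), in a panel per library with Spearman's rho. The points slope down in WT 1 (-0.67) and Control 2 (-0.43) and up in KO 2 (0.49), WT 2 (0.49) and Control 1 (0.40).

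The partners of the module in the mitochondrion gave mixed pictures, and none of their genes passed the threshold in any comparison. The 13 subunits encoded by mitochondrial DNA had a median log2 difference of 0.24 between knockout and WT EAM hearts, with 13 of 13 positive. This rested on WT 3, since without it the median was 0.01 and 8 of 13 were positive, while without WT 1 it was 0.42. The widest, mt-Atp8 of complex V, with a log2 difference of 0.50 (SE 0.35, adjusted p = 0.456), had 25551, 33916 and 31513 FPKM in knockout libraries, against 31144, 28677 and 10704 FPKM in WT EAM libraries. Between WT EAM and control hearts the 13 had a median of -0.23 (12 negative) and 0.03 without WT 3, against -0.38 without WT 1. Between knockout and control hearts the median was 0.01, and from -0.02 to 0.06 with 1 library left out.

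Most subunits and carriers outside the name rule were also negative against control, without a call. Cyc1, the cytochrome of complex III, had 614, 574 and 553 FPKM in knockout, 534, 558 and 652 FPKM in WT EAM and 733 and 699 FPKM in control libraries, with all EAM libraries below both controls. Cox4i1 of complex IV had 492, 438 and 507 FPKM in knockout, 424, 405 and 526 FPKM in WT EAM and 534 and 552 FPKM in control libraries. Over the 14 genes of this list, 11 were negative between WT EAM and control hearts (median -0.19), 12 between knockout and control hearts (median -0.18) and 7 between knockout and WT EAM hearts (median 0.00). The median between WT EAM and control was -0.04 without WT 1, -0.07 without Control 1 and -0.31 without WT 3, and between knockout and control it was -0.10 without Control 1. Between knockout and WT EAM it was -0.13 without WT 1 and 0.11 without WT 3. The lowest of the list in both comparisons with control was Slc25a4, the heart ADP/ATP carrier, with log2 differences of -0.31 (SE 0.14, adjusted p = 0.341) in WT EAM and -0.31 (SE 0.14, adjusted p = 0.356) in knockout hearts.

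The 13 tricarboxylic acid cycle enzymes, which feed the chain with electrons, were all negative between WT EAM and control hearts (median log2 difference -0.17) and between knockout and control hearts (median -0.14). Between knockout and WT EAM hearts 10 of 13 were positive, with a median of 0.04, and 2 of 13 without WT 1, with a median of -0.09. The lowest between WT EAM and control was Idh3b, a subunit of isocitrate dehydrogenase, with a log2 difference of -0.34 (SE 0.16, adjusted p = 0.371). Without WT 1 the median between WT EAM and control was -0.08, with 8 of 13 negative. Without Control 1 the medians against control were -0.07 in WT EAM and -0.07 in knockout hearts.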

How the data were processed

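The authors deposited FPKM values for 34745 genes in 8 bulk RNA-seq libraries of mouse heart. Per the submitters' processing notes, the tools were edgeR, StringTie 1.3.3b and HISAT2 2.0.4 on the build mm10, with no roles named; the sources used here do not give the annotation or the handling of shared reads. A second deposited sheet names the EAM libraries by day 35, where the labels give day 21, and numbers the animals in a way that does not pair the groups.

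From the deposited FPKM, log2(FPKM + 1) was fitted with limma 3.58.1 (trend, R 4.3.3) over all 8 libraries for 10393 genes with at least 1 FPKM in at least 2 libraries, with p-values adjusted over all of them by Benjamini-Hochberg and a threshold of 0.05. Fold differences are thus on the log2(FPKM + 1) scale, which understates those of low genes. The fit was tested on simulated data. Isoform ratios had exact permutation tests (scipy 1.17.1). Depth was inferred from the steps of low values, and the floor of 3 fragments covers counting error only. Copies were sought with BLAST+ 2.17.0 in GENCODE M21 transcripts. Promoters come from RefSeq GRCm38.p6. Coordinates are mm10, as deposited.

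Named are members with any call, the 5 highest and 5 lowest differences per comparison, the highest and lowest member of each complex, the isoform and Sdh genes, and members under the filter; others are named as chosen after their values were seen. The members and lists were chosen with earlier results of these data known. Alternatives were other pseudocounts, filters, scalings, fits and left-out libraries.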

Additional observations from a re-analysis of the deposited data

How the results depend on the processing

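No member passed the threshold in any of the 3 comparisons or under any of the 22 alternatives. The lowest adjusted p (limma) among members over the alternatives was 0.103 between knockout and WT EAM, 0.0813 between WT EAM and control and 0.0999 between knockout and control. Between knockout and WT EAM the members' median log2 difference of -0.09 was 0.067 with median-ratio scaling, 0.051 with quantile normalization, 0.072 with the exon-length trend removed and 0.039 without WT 3. The scalings moved the median of all genes from -0.12 to 0.00 and 0.01. The trend removal also took out each library's common level and moved this median to 0.00. The cause for single members was not tested. Between knockout and control the median of -0.24 was -0.11 with quantile normalization, -0.16 with the atrial score as a covariate and -0.15 with the exon-length trend removed. Leaving out 1 library at a time gave medians from -0.18 to 0.039 between knockout and WT EAM, from -0.30 to -0.09 between WT EAM and control and from -0.29 to -0.20 between knockout and control. The replicate numbers did not pair the libraries, and with them as a replicate block the medians were -0.09, -0.25 and -0.30, with no member called. Leaving out 1 library at a time, the log2 difference in the ratio of Cox6a2 to Cox6a1 between knockout and WT EAM ran from -0.028 to 0.22 and between WT EAM and control from -0.44 to -0.20, that of Cox7a1 to Cox7a2 from -0.18 to 0.00153 between knockout and WT EAM and from -0.064 to 0.023 between WT EAM and control, and that of Cox8b to Cox8a from -0.47 to -0.097 between knockout and WT EAM, from -0.54 to -0.30 between knockout and control and from -0.29 to 0.088 between WT EAM and control. Of 718 values per comparison for 36 named members, 89, 39 and 49 changed sign and 0 passed the threshold. Over all genes, calls lower in the knockout than in WT EAM numbered 291, and 33 to 356 over the alternatives; calls higher in WT EAM than in control numbered 141, and 13 to 162; knockout against control gave 59 higher (11 to 93) and 83 lower (21 to 100). The trend removal and the set without KO 1, KO 2 and WT 2 were chosen after seeing the data. With 2 or 3 libraries a group, a member's log2 difference had an interval with a median half-width of 0.34 to 0.38, so a shift as small as the members' medians was not detectable gene by gene. Members share libraries, so their common direction is not a set of independent observations.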

Other observations

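Genes that build and regulate the respiratory chain gave no call in these libraries (limma). Their difference from the subunits was not tested. Of 13 complex I assembly factors the median log2 difference was -0.02 between knockout and WT EAM hearts, -0.01 between WT EAM and control hearts and -0.04 between knockout and control hearts. These signs turned with 1 library: the first was 0.06 without WT 3 and -0.12 without WT 1, the second 0.07 without WT 1 and -0.09 without WT 3, and the third 0.03 without Control 1 and -0.09 without Control 2. The 32 assembly factors of complexes II to V had medians of -0.04, 0.00 and -0.06 in the same comparisons. Between knockout and WT EAM this median was 0.09 without WT 3 and -0.15 without WT 1, between WT EAM and control 0.11 without WT 1 and -0.11 without WT 3, and between knockout and control -0.12 without KO 3 and -0.01 without Control 2. Among 13 tested transcriptional regulators of respiration the medians were -0.05 between knockout and WT EAM (0.04 without WT 3, -0.15 without WT 1), 0.08 between WT EAM and control (0.19 without Control 1, -0.07 without Control 2) and -0.07 between knockout and control (0.02 without Control 1, -0.13 without Control 2). Uqcc1, an assembly factor of complex III, had 6.17, 6.44 and 6.57 FPKM in knockout libraries, against 3.87, 4.59 and 5.75 FPKM in WT EAM libraries, without overlap (log2 difference 0.38, SE 0.13, adjusted p = 0.144 in limma). Pprc1, a coactivator related to PGC-1, had 0.972, 1.54 and 1.15 FPKM in knockout libraries, against 2.07, 1.98 and 1.76 FPKM in WT EAM libraries, also without overlap (-0.41, SE 0.12, adjusted p = 0.0932 in limma). Against control libraries, at 1.11 and 1.11 FPKM, Pprc1 was higher in WT EAM without overlap (0.48, SE 0.13, adjusted p = 0.126 in limma).

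The 10 tested genes of coenzyme Q and cytochrome synthesis had negative log2 differences in 10 of 10 cases between WT EAM and control hearts (median -0.12) and in 9 of 10 between knockout and control hearts (median -0.11). The first of these medians was -0.25 without WT 3 and -0.06 without WT 1, and the second was -0.19 without Control 2 and -0.07 without KO 1. Coq7, a hydroxylase of coenzyme Q synthesis, had 14.1, 13.1 and 14.3 FPKM in knockout, 15.9, 14.3 and 17.6 FPKM in WT EAM and 18.3 and 20.2 FPKM in control libraries, all EAM values lying below both controls. Its difference between knockout and control was -0.45 (SE 0.13, adjusted p = 0.148 in limma).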
